A study of Mus musculus with 8 samples.

Results

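The genes described here are those mouse zinc finger protein genes whose symbol is Zfp followed by a number and whose signal was well above background in every muscle sample. Each gene was represented by its brightest probe, and membership was set by the symbol and by the scanner's flag for signal well above background on all 8 arrays. This gave 273 genes of the 330 Zfp genes with a probe, and of 12739 named genes tested. The list was put together with its shift in this comparison already known, so its counts are given as a description beside those of other genes. The study compared a fast-twitch hind limb muscle, the extensor digitorum longus (EDL), of 4 PCKO and 4 wild-type (WT) male mice on a C57BL/6 strain background. PCKO mice carry an inducible knockout of the acetyltransferases p300 and CBP that is restricted to skeletal muscle. When 13 to 15 weeks old they were given tamoxifen by oral gavage on 5 days, and they were killed after a 4 h fast on the day that followed the last dose. The genotype field of the labels names only CBP for the knockout, the tamoxifen text is the same for all 8 samples, and neither the promoter driving the recombinase nor the alleles carried by WT mice are given. Each array held the RNA of 1 mouse, read in a single colour, and the 8 arrays shared 1 slide.

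Most Zfp proteins bind DNA through arrays of C2H2 zinc fingers, each folded around a zinc ion, and many carry a KRAB domain that recruits the corepressor Trim28 (KAP1). Trim28 in turn brings the histone methyltransferase Setdb1, HP1 proteins and deacetylases, and in embryonic cells this system silences retrotransposons and protects imprinted loci. Other Zfp genes encode activators, developmental regulators and RNA-binding proteins without that domain, and many of the KRAB type lie in tandem clusters that arose by gene duplication. p300 and CBP are coactivators that acetylate histones at enhancers and promoters.

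To show the start sites of the genes with the widest differences, 250 bases upstream of the RefSeq transcription start (GRCm38.p6) are printed 5′ to 3′ for the 3 highest and 2 lowest differences among genes with 1 listed window, and for the gene nearest 0. Capitals mark matches on either strand to the cAMP response element TGACGTCA or its TGACG part, CCAAT, the GC box GGGCGG, the E-box CAGCTG and TATAAA.
Zfp30, chr7:29783718-29783967, plus strand: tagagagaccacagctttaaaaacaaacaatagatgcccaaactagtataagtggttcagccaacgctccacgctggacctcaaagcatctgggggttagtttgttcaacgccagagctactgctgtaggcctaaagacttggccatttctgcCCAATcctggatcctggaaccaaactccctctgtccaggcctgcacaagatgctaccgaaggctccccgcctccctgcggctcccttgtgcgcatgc
Zfp784, chr7:5038447-5038696, minus strand: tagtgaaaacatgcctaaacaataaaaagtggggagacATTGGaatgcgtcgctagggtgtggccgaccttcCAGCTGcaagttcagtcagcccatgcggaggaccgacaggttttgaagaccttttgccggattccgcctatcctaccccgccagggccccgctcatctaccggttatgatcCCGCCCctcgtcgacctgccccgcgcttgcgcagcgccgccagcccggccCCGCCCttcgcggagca
Zfp810, chr9:22307639-22307888, minus strand: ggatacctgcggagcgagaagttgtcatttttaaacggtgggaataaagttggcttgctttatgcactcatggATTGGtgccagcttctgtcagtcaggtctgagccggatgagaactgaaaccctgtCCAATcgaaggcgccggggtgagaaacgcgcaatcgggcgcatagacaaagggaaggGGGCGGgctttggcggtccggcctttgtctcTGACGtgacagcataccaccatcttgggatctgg
Zfp467, chr6:48445091-48445340, minus strand: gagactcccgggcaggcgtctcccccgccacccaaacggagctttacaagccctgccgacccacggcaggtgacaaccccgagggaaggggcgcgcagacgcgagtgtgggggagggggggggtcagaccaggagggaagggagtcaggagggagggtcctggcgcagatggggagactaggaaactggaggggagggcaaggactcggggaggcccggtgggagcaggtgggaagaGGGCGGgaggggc
Zfp503, chr14:21989602-21989851, minus strand: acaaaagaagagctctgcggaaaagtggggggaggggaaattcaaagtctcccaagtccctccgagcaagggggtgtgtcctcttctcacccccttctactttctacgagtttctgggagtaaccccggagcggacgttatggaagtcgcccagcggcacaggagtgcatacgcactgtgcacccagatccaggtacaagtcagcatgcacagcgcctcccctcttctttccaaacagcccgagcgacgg
Zfp580, chr7:5051282-5051531, plus strand: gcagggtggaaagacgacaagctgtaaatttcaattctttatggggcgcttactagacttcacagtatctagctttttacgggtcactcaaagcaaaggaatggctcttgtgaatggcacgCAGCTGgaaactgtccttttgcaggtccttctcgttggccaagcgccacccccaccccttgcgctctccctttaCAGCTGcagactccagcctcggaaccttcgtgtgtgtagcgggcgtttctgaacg

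A window of 300 bases (250 before and 50 after the start) was given for 228 of the 273 genes, and the first was used for the 41 with several. They were set beside the windows of all 27025 genes that had one, whether or not the gene was detected here. Zfp windows held a median of 14 CG pairs, against 7 for all genes, and the sets were not matched for this. The full TGACGTCA element, the classical site of the CBP partner Creb1, was in 8 Zfp windows (3.51%), against 1.88% of windows of all genes. Its TGACG part, which overlaps it, was in 32.9%, against 21.0%. CCAAT was in 47.4% against 37.9%, GGGCGG in 49.1% against 35.9%, CAGCTG in 17.98% against 16.1%, and TATAAA in 6.58% against 14.2%. Among Zfp genes higher in PCKO, lower in PCKO and without a call, TGACG was in 29.0%, 35.7% and 40.3% of 138, 28 and 62 windows, and CCAAT in 51.4%, 42.9% and 40.3%. In the printed windows, Zfp784 and Zfp810, both higher in PCKO, hold GGGCGG on one of the strands and CCAAT, Zfp467, lower in PCKO, holds GGGCGG, and Zfp503, lower in PCKO, holds none of the motifs. Zfp784 also holds CAGCTG, and Zfp810 also holds TGACG. Zfp30 holds CCAAT and Zfp580 CAGCTG.

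Between 24207 and 25673 of 55681 non-control probes were well above background per array, and no such spot was saturated. Levels are log2 signals relative to the 75th percentile of their own array, and a difference is PCKO minus WT on that log2 scale. Log2 signals correlated at r = 0.989 to 0.992 within groups and 0.911 to 0.925 between them. The 2 rows of the slide each held 2 arrays of either group, but PCKO arrays sat in positions 1 and 2 of a row and WT arrays in positions 3 and 4, so position in a row and genotype cannot be told apart. Ep300 (p300) had a level of -1.30 in PCKO and 0.15 in WT, a difference of -1.44, and Crebbp (CBP) 3.68 and 4.38, a difference of -0.70; where their probes lie relative to the deleted exons is not known here. The 75th percentile itself, set against 7 spike-in probes, was 0.68 higher in PCKO (-2.80 ± 0.34) than in WT (-3.48 ± 0.30), as mean ± SD over 4 mice each (p = 0.02857 by a two-sided exact permutation test, which can give none smaller here). Relative to the spike-ins every PCKO minus WT difference therefore moves up by 0.68, so that small negative differences turn positive. All 10 muscle fibre markers were detected on all 8 arrays, which fits the tissue label, and all 10 were lower in PCKO (summed level 2649 to 3167 in PCKO and 8245 to 10314 in WT, in units of the 75th percentile), 6 of them also relative to the spike-ins.

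Zfp genes were mostly higher in PCKO muscle. Of the 273, 165 were higher in PCKO, 32 were lower and 76 passed in neither direction (limma, Benjamini-Hochberg adjusted p under 0.05 over all genes tested). That is 60.4% higher and 11.7% lower, where 38.3% and 32.7% of all 12739 genes tested were higher and lower. Of the 11590 genes that met the same requirement of signal on all 8 arrays, 39% were higher and 32.3% lower. The share passing in either direction was 72.2% for Zfp genes, 71.3% for those 11590 and 71% for all genes tested, so the Zfp share was near the background and the split of directions was not. All 4 PCKO values lay above all 4 WT values for 154 Zfp genes (56.4%, against 36.8% of the 11590 and 36.1% of all genes tested) and below them for 26 (9.52%, against 29.7% of either). Relative to the spike-ins, 220 Zfp genes (80.6%) were higher in PCKO and 1 (0.366%) was lower, where 53.5% and 9.45% of all genes tested, and 54.3% and 7.88% of the 11590, were. In that fit limma gave genes the same standard error of 0.31, so calls relative to the spike-ins, here and below, act as a cutoff on the size of the difference. With each gene's own variance 186 Zfp genes were higher and 1 lower, and over all genes 6092 and 967.

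The differences were modest for most of these genes. The median over the 273 was 0.43, a 1.35-fold higher signal in PCKO, with quartiles of 0.12 and 0.78 and a range of -2.28 to 2.07. The median standard error of a difference was 0.11. Genes above background on all arrays had a median of 0.07, quartiles of -0.52 and 0.55 and a range of -8.98 to 5.65, so Zfp differences were both shifted and packed more closely (SD over genes 0.63 against 1.03). A total of 217 Zfp differences (79.5%) were above 0, against 53.4%. At least a 2-fold higher signal, with a call, was seen for 48 Zfp genes (17.6%, against 10.2%), and at least a 2-fold lower one for 7 (2.56%, against 12.2%).

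**Figure D1:**
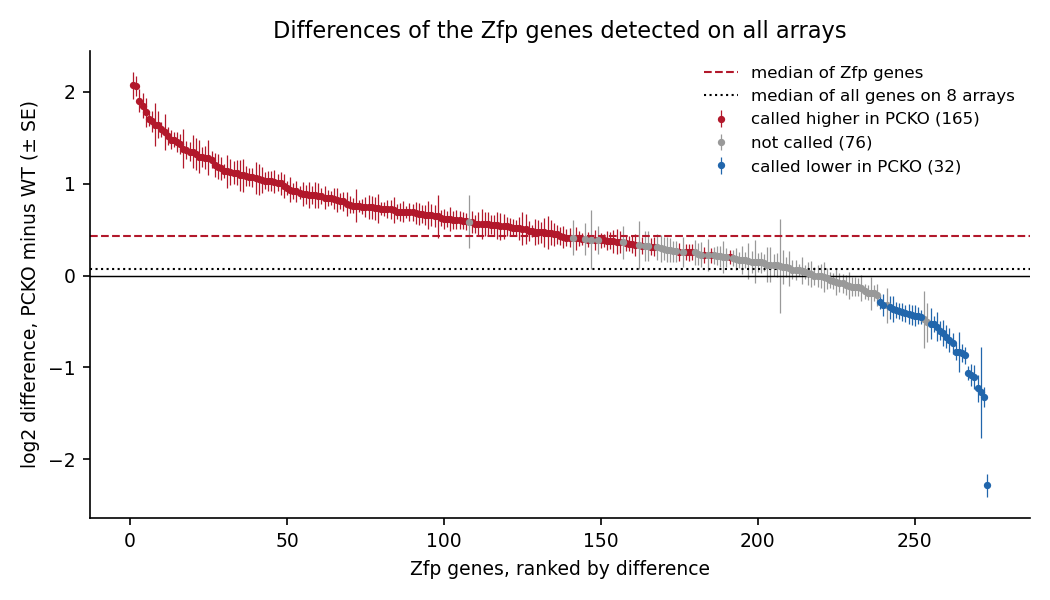
Differences (PCKO minus WT, log2, with the standard error of the fit, n = 4 mice per group) of the 273 Zfp genes, ranked from one end of the range to the other and coloured by call. The dashed line at 0.43 is the Zfp median and the dotted line at 0.07 the median of the 11590 genes that met the same detection requirement. Of the Zfp genes, 165 were higher in PCKO and 32 lower.

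The shift was present in every PCKO mouse. With each gene set to its WT mean, the median Zfp value was 0.45, 0.36, 0.47 and 0.52 in the 4 PCKO mice and -0.06, 0.02, -0.01 and 0.08 in the 4 WT mice. For all genes above background on the 8 arrays the same medians were 0.07, 0.05, 0.09 and 0.06 in PCKO and -0.05, 0.02, 0.00 and 0.02 in WT. WT medians near 0 follow from setting each gene to its WT mean. The list was chosen with the shift known, so the gap between groups is a description. How close the groups lay over all genes depended on the scaling. The median difference of all genes tested was 0.06 here and 0.73 relative to the spike-ins. Within slide row 1, 124 Zfp genes were higher in PCKO and 16 lower, with a median difference of 0.43, and within row 2 the counts were 126 and 21 with a median of 0.46. With slide row as a block they were 166 and 31.

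Zfp probes were dimmer than most, with a median level of 0.77 against 2.08 for all genes above background on the 8 arrays, so genes of matched brightness were compared by dividing all 11590 into 5 equal bins of mean level. In the dimmest bin, 54.1% of 85 Zfp genes were higher in PCKO and 7.06% lower, against 32.6% and 32.2% of 2233 other genes. In the next bin, 69.1% of 81 were higher and 11.1% lower, against 44.3% and 30.5%. In the middle bin the gap was widest, with 78.2% of 55 Zfp genes higher and 9.09% lower, against 45.0% and 28.5%. In the next brighter bin the shares were 45.9% and 16.2% of 37, against 43.3% and 28.5%. In the brightest bin 3 of 15 Zfp genes were higher (20.0%) and 6 lower (40.0%), against 27.2% and 44.2% of others. The median Zfp differences in these bins, dimmest first, were 0.51, 0.47, 0.59, 0.22 and -0.12, against -0.04, 0.18, 0.17, 0.14 and -0.14 for the other genes. The excess of higher calls was thus found in the 3 dimmer bins and was small or absent in the 2 brighter ones. Across the 273 genes, level and difference correlated at r = -0.23 (Spearman -0.18), and across the 11590 at r = -0.10 (-0.08); genes on an array share labelling and scaling and are not independent replicates.

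**Figure D2:**
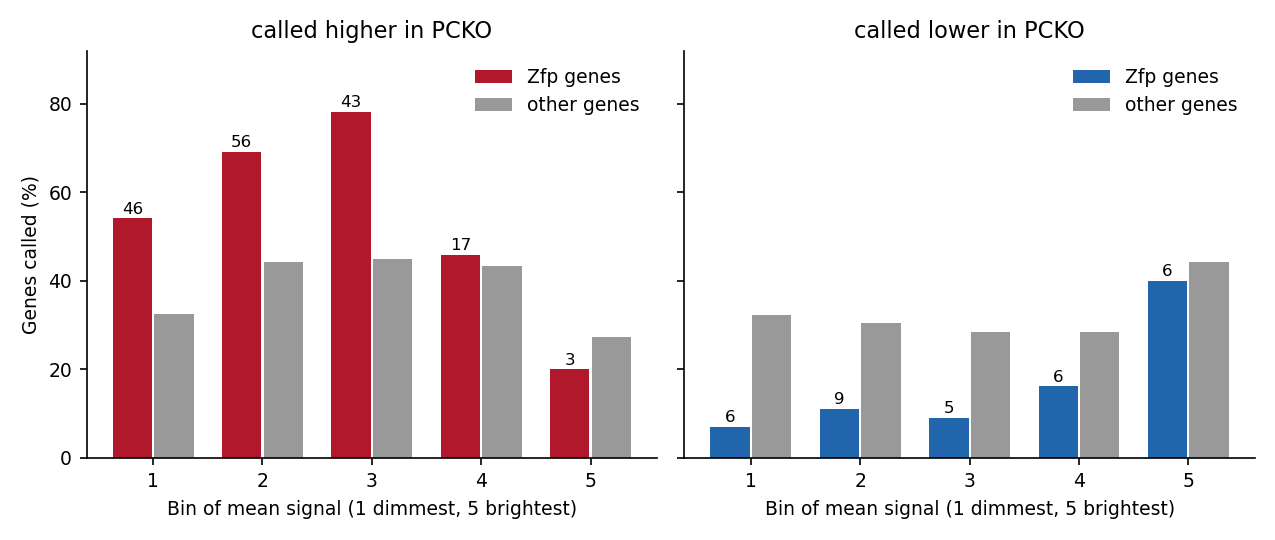
Share (%) of Zfp genes and of other genes called higher in PCKO (one panel) and called lower in PCKO (the other), by bin of mean signal (1 dimmest, 5 brightest). In the middle bin 78.2% of 55 Zfp genes were higher, against 45.0% of other genes, and in the brightest bin 20.0% of 15 were, against 27.2%. Numbers above the bars count Zfp genes.

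The largest increases reached 4.2-fold. Zfp30, a KRAB zinc finger gene of a cluster on chromosome 7, had levels of 1.88, 1.75, 2.06 and 2.27 in PCKO mice, against -0.21, -0.01, -0.30 and 0.19 in WT mice. All 4 PCKO values lay well above the WT values, and the difference was 2.07 ± 0.14 (SE; 4.2-fold; limma adjusted p = 3.5e-06). Zfp938 had -0.30, 0.11, -0.07 and -0.21 in PCKO mice, against -2.28, -2.05, -2.08 and -2.29 in WT mice, a difference of 2.06 ± 0.11 (adjusted p = 6.7e-07). The WT values of Zfp938 were among the lower levels on the arrays and still tight. Zfp784 had 1.0, 0.93, 0.83 and 1.09 in PCKO mice, against -1.09, -0.81, -1.18 and -0.69 in WT mice, a difference of 1.91 ± 0.12 (adjusted p = 2.1e-06). Zfp704 had 3.18, 2.91, 2.95 and 3.06 in PCKO mice, against 0.81, 1.30, 1.29 and 1.59 in WT mice, a difference of 1.78 ± 0.16. Its WT mice were more spread than its PCKO mice, and the groups did not overlap. Zfp286 (1.85 ± 0.13), Zfp90 (1.71 ± 0.08), Zfp184 (1.68 ± 0.12), Zfp248 (1.64 ± 0.15) and Zfp251 (1.59 ± 0.08) completed the largest increases together with Zfp810. Zfp810 was the least even of these, with -0.10, -1.15, -1.09 and -0.65 in PCKO mice, against -2.48, -2.03, -2.58 and -2.47 in WT mice, a difference of 1.64 ± 0.24 (adjusted p = 2.7e-04). PCKO mouse 1 stood highest for Zfp810, and the lowest PCKO value was still above every WT value. The sizes of the dimmer of these genes depended on the background correction: with normexp, which fits a background model to the spot and local background signals and adds an offset of 50, Zfp938 differed by 0.95, Zfp784 by 1.15, Zfp184 by 0.72, Zfp248 by 0.51 and Zfp810 by 0.45, all still called. Zfp248 was at 0.95 in the authors' deposited table.

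Among the genes that were lower, Zfp467 had the most negative difference. Zfp467 promotes the conversion of marrow stromal cells to adipocytes in mice. Its levels were 3.21, 3.07, 3.42 and 3.29 in PCKO mice, against 5.26, 5.50, 5.79 and 5.56 in WT mice, and the groups lay far apart. The difference was -2.28 ± 0.13 (4.86-fold lower; limma adjusted p = 8.4e-07), and it was the 1 Zfp gene that also passed as lower relative to the spike-ins, at -1.60. Its size depended on the probe: of 4 probes tested, the other 3 gave -2.41, -1.05 and -0.38, of which the one at -0.38 was not called (adjusted p = 0.21), and the authors' deposited table, through the probe at -1.05, gave -0.83. Zfp503, which acts in the developing striatum, had 1.84, 1.87, 1.75 and 1.97 in PCKO mice, against 3.15, 3.41, 2.93 and 3.24 in WT mice, a difference of -1.32 ± 0.11 (-0.64 relative to the spike-ins). Zfp106, an RNA-binding protein needed to keep motor innervation of mouse muscle, had 4.64, 4.35, 4.05 and 4.41 in PCKO mice, against 5.55, 5.37, 5.43 and 5.41 in WT mice. PCKO mouse 3 was the lowest and all PCKO values lay below the WT values; the difference was -1.08 ± 0.12 (adjusted p = 6.2e-05; -0.40 relative to the spike-ins). Zfp708, a KRAB protein that binds retrotransposon copies in mouse embryonic cells, differed by -1.23 ± 0.15 and Zfp706 by -1.06 ± 0.08. Zfp661 (-1.27) had overlapping groups and is described further below. The remaining low values with groups that did not overlap were those of Zfp142 (-1.11, but 0.89 for its other probe), Zfp423 (-0.87), Zfp446 (-0.84), Zfp985 (-0.83 ± 0.22) and Zfp710 (-0.83). Leaving aside Zfp467 and Zfp661, these 9 lower genes kept a negative sign relative to the spike-ins and passed the threshold there in no case. With normexp Zfp708 (-0.81), Zfp985 (-0.54) and Zfp710 (-0.48) were over 1.5 times smaller and still called.

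**Figure D3:**
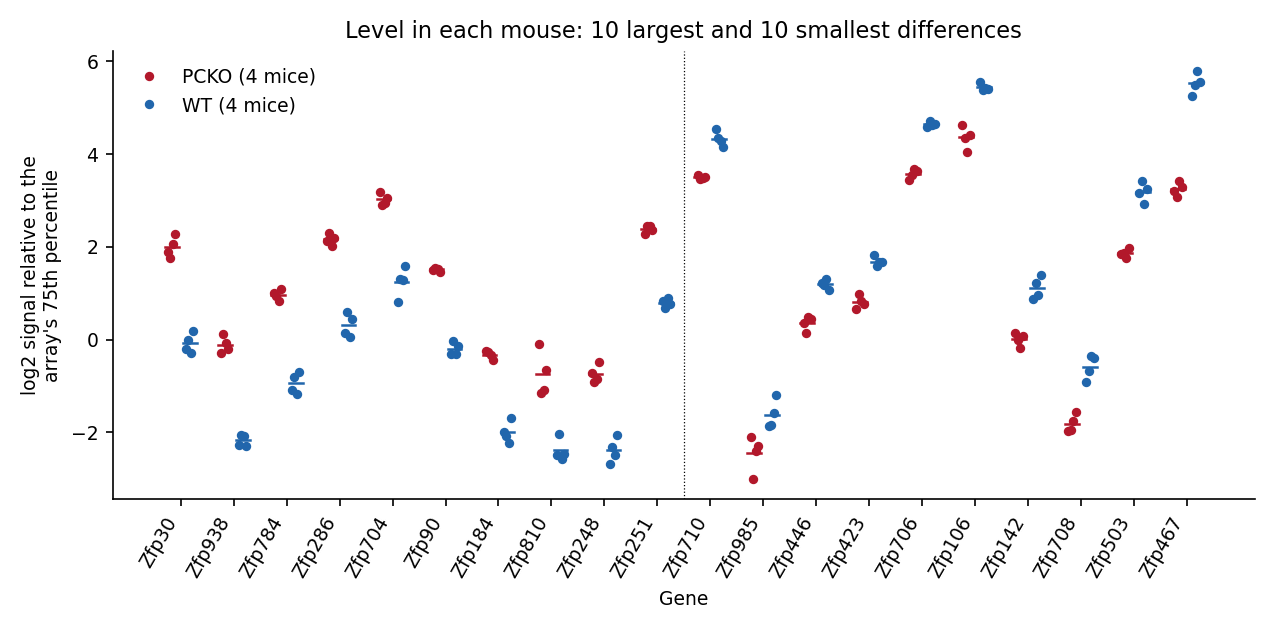
Level (log2 signal relative to the array's 75th percentile) in each of the 4 PCKO and 4 WT mice for the 10 Zfp genes with the largest and, right of the dotted line, the 10 with the smallest (most negative) differences; short bars are group means. For all 20 genes the PCKO and WT points do not overlap, which was a condition for being shown, and Zfp467 drops to 3.25 in PCKO, against 5.53 in WT.

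Listed Zfp proteins that act on RNA, ribosomes or the spindle included 8 members. Of these, 5 were higher in PCKO, 1 was lower and 2 passed in neither direction, with a median difference of 0.31. The share higher was 62.5%, near the 60.4% of all 273 Zfp genes, beside 38.3% of all genes tested. The share lower was 12.5%, near the 11.7% of all 273 Zfp genes, beside 32.7% of all genes tested. Zfp622, which takes part in assembly of the large ribosomal subunit, had 7.58, 7.73, 7.73 and 7.64 in PCKO mice, against 6.86, 6.96, 6.95 and 7.0 in WT mice, a difference of 0.73 ± 0.07 (limma adjusted p = 2.6e-05). It was one of the brightest Zfp probes, and the groups did not overlap. Zfp346, which binds double-stranded RNA, differed by 0.55, Zfp207, which helps chromosomes attach to the spindle, by 0.47, Zfp326, which couples splicing to elongation, by 0.36, and Zfp638, an RNA-binding cofactor of adipocyte differentiation, by 0.26. The gene that was lower was Zfp106. Zfp598, the ubiquitin ligase that marks collided ribosomes, had a difference of 0.26 (adjusted p = 0.07) and Zfp830 one of 0.19 (adjusted p = 0.091). Relative to the spike-ins 7 of the 8 were higher and none was lower.

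Activators and promoter-binding factors gave 4 higher, 1 lower and 4 without a call among 9, with a median difference of 0.26. The 44.4% that were higher lay near the 39% of genes above background on all arrays, beside 60.4% of all 273 Zfp genes. The 1 lower gene made 11.1%, near the 11.7% of all 273 Zfp genes, beside 32.3% of genes above background on all arrays. Zfp410, an activator whose main target in mice is the chromatin remodeller gene Chd4, had 1.88, 2.07, 1.93 and 1.84 in PCKO mice, against 1.25, 1.42, 1.47 and 1.16 in WT mice, a difference of 0.61 ± 0.09 (adjusted p = 4.5e-04). Chd4 itself differed by 1.12 ± 0.10. Zfp335 (0.41), Zfp148 (0.40) and Zfp64 (0.26) were also higher. Zfp143, an activator at many promoters that also marks chromatin loop anchors, was lower, with 0.66, 0.72, 0.49 and 0.83 in PCKO mice, against 0.98, 1.29, 1.16 and 0.95 in WT mice. Its difference of -0.42 ± 0.11 (adjusted p = 0.0069) turned to 0.26 relative to the spike-ins. Zfp281, known from pluripotent cells, had 2.96, 2.89, 2.93 and 2.85 in PCKO mice, against 2.84, 2.89, 2.81 and 2.85 in WT mice, so its groups overlapped (0.06 ± 0.06, adjusted p = 0.42). Zfp384 (0.59), Zfp24 (-0.18) and Zfp367 (-0.17) did not pass either, and relative to the spike-ins Zfp24 and Zfp367 turned to 0.49 and 0.51. With normexp background correction Zfp143 (-0.20, adjusted p = 0.19) and Zfp335 (0.25, adjusted p = 0.094) lost their calls.

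Regulators of mesenchymal, adipose and developmental programmes were divided: of 9, 5 were lower in PCKO and 4 higher, all with a call. Of all 273 Zfp genes 60.4% were higher and 11.7% lower, and of all genes tested 38.3% and 32.7%. The median of -0.60 for the 9 became 0.08 relative to the spike-ins, where 4 were higher and 1 was lower. The lower ones were Zfp467, Zfp503, Zfp423, which commits cells to the preadipocyte lineage, Zfp703 (-0.70 ± 0.13) and Zfp521, which opposes adipogenesis (-0.60 ± 0.11, turned to 0.08 relative to the spike-ins). Zfp423 had 0.66, 0.98, 0.84 and 0.77 in PCKO mice, against 1.82, 1.58, 1.66 and 1.67 in WT mice, with no overlap; another of its probes gave -0.44 in the authors' deposited table. The higher ones were Zfp704, Zfp697, which takes part in the regeneration of injured mouse muscle (1.38 ± 0.21), Zfp219, a partner of Sox9 in cartilage (1.06 ± 0.18), and Zfp536, a brake on neuronal differentiation (1.05 ± 0.16). With normexp, Zfp219 was at 0.022 (adjusted p = 0.89) and Zfp697 at 0.35 (adjusted p = 0.058), so both lost their calls, and Zfp536 (0.60), Zfp703 (-0.39) and Zfp521 (-0.35) kept theirs at smaller size; Zfp219 was at 0.43 in the authors' deposited table. Zfp697 had -1.18, -0.82, -1.21 and -1.40 in PCKO mice, against -2.34, -2.95, -2.81 and -2.04 in WT mice. Markers of other cell types were read in the same fit. Of 8 markers of fibroblasts and fibro-adipogenic cells 8 were lower in PCKO, 5 of them also relative to the spike-ins. Their median difference was -1.45, and their summed level was 241 to 329 in PCKO and 518 to 637 in WT. Of 7 endothelial markers 6 were lower (summed level 17.7 to 26.5 in PCKO and 28.9 to 31.7 in WT), of 7 macrophage markers 6 (13.7 to 23.5 and 30.9 to 39.4) and of 6 smooth muscle markers 6 (54.6 to 72.2 and 105 to 128). Markers were tested only where well above background on at least 4 arrays, which left 5 of the 6 satellite cell markers with a probe. Relative to the spike-ins none of the 7 endothelial and none of the 6 smooth muscle markers was lower, and 1 of 7 macrophage markers was. Of 5 satellite cell markers 3 were lower (10.3 to 11.7 in PCKO and 12.2 to 14.9 in WT), and of 5 Schwann cell markers 2 were lower and 1 higher (5.76 to 10.9 and 7.13 to 11.1); relative to the spike-ins 1 satellite cell marker was lower and 1 higher, and of the Schwann cell markers 1 was higher and none lower. The part of these cell types in the Zfp values was not tested, and in whole muscle fewer cells of a type and less RNA per cell cannot be told apart.

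Partners of chromatin complexes were higher in 4 of 5 cases, with a median of 0.61 and none lower. Of all 273 Zfp genes 60.4% were higher and 11.7% lower, and of all genes tested 38.3% and 32.7%. Zfp687, found with Zfp592 and the reader Zmynd8, had 3.01, 3.24, 3.19 and 3.14 in PCKO mice, against 2.55, 2.22, 2.44 and 2.58 in WT mice, a difference of 0.70 ± 0.10 (limma adjusted p = 2.7e-04). Zfp644, which works with the methyltransferases Ehmt1 and Ehmt2, differed by 0.63 ± 0.08, Zfp592 by 0.61 ± 0.11 and Zfp217, a partner of the CoREST corepressor, by 0.38 ± 0.07. Second probes of Zfp592 (-0.10) and Zfp217 (-0.15) gave differences near 0 with no call. Zfp462 had 0.95, 1.2, 1.15 and 1.18 in PCKO mice, against 0.77, 1.07, 0.60 and 1.56 in WT mice, and overlapped fully (0.12 ± 0.19, adjusted p = 0.59).

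KRAB proteins with described targets were higher in 4 of 6 cases, lower in 1 and without a call in 1, with a median of 0.79. That is 66.7% higher and 16.7% lower, beside 60.4% and 11.7% of all 273 Zfp genes and 38.3% and 32.7% of all genes tested. Zfp809, which silences murine retroviral DNA in embryonic cells, had 1.65, 1.58, 1.64 and 1.73 in PCKO mice, against 0.35, 0.69, 0.57 and 0.70 in WT mice. Its difference was 1.07 ± 0.09 (limma adjusted p = 1.3e-05), with a wide gap between groups. Zfp568, which represses a placental Igf2 transcript, had 2.90, 2.63, 2.68 and 2.61 in PCKO mice, against 1.92, 1.75, 1.69 and 1.96 in WT mice (0.88 ± 0.10). Zfp445, a keeper of imprints, had 2.31, 2.27, 2.34 and 2.35 in PCKO mice, against 1.60, 1.73, 1.57 and 1.60 in WT mice (0.69 ± 0.07). Zfp30 was the fourth that was higher and Zfp708 the one that was lower. Zfp932, a repressor of endogenous retroviruses, had a difference of 0.14 ± 0.09 (adjusted p = 0.20). The partners that such proteins recruit were tested as 32 genes, of which 15 were higher, 4 lower and 13 without a call, with a median of 0.32. That is 46.9% higher and 12.5% lower, beside 38.3% and 32.7% of all genes tested, and relative to the spike-ins 24 were higher and none lower, beside 53.5% and 9.45%. Trim28 differed by 0.49 ± 0.07, the methyltransferase gene Ehmt2 by 1.2 ± 0.10, the remodeller gene Smarcad1 by 1.27 ± 0.28, Hdac1 by 0.94 ± 0.12 and Mphosph8, of the HUSH silencing complex, by 0.92 ± 0.08. Setdb1 had 0.40 ± 0.21 (adjusted p = 0.12) and did not pass. Uhrf1 (-1.0), Chd3 (-0.83), Trim24 (-0.71) and Suv39h2 (-0.35) were lower, of which Suv39h2 turned to 0.33 relative to the spike-ins and none passed there.

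**Figure D4:**
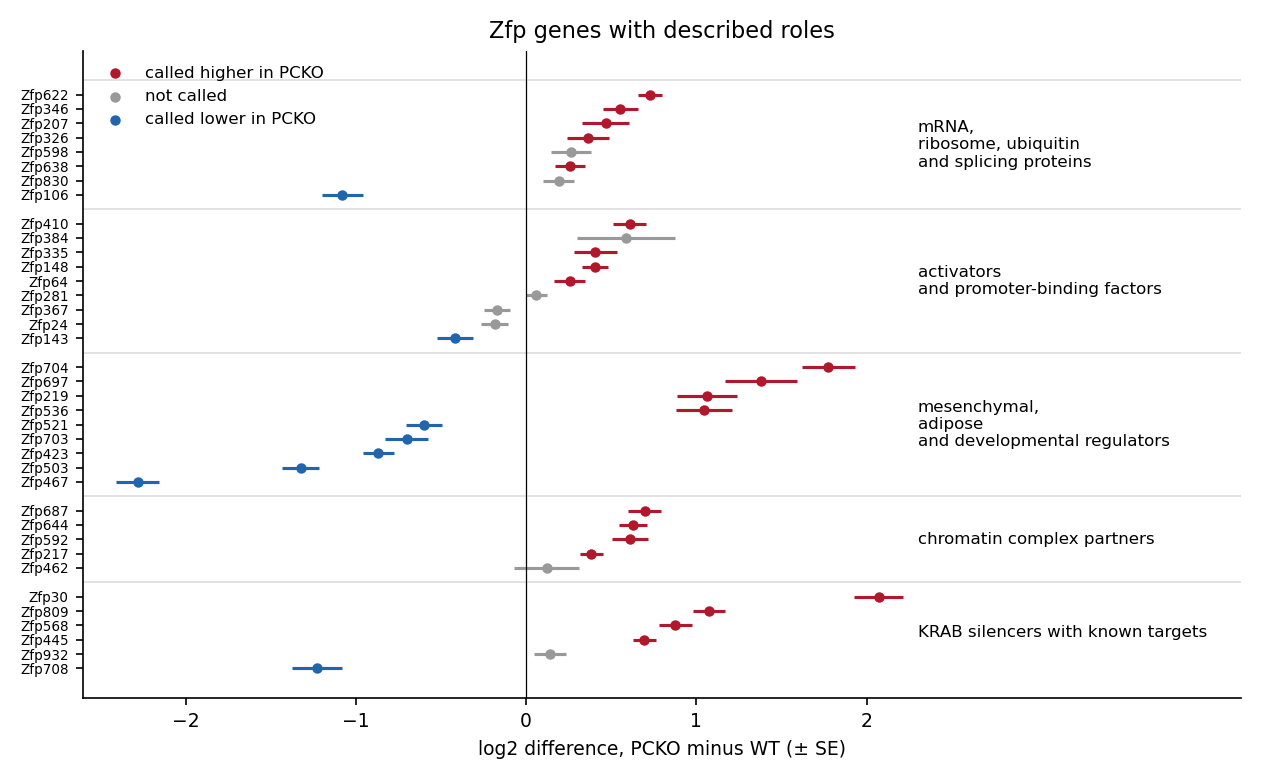
Differences (PCKO minus WT, log2, with the standard error of the fit, n = 4 mice per group) of Zfp genes with described roles, grouped by role and coloured by call. The 9 mesenchymal, adipose and developmental regulators spread from -2.28 (Zfp467) to 1.78 (Zfp704), while the 5 chromatin partners lie between 0.12 and 0.70.

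The 5 brightest Zfp probes were divided, with 3 higher in PCKO and 2 lower. Zfp628 had 8.99, 8.45, 8.60 and 8.71 in PCKO mice, against 9.65, 8.98, 9.16 and 9.07 in WT mice, a difference of -0.52 ± 0.17 (limma adjusted p = 0.021) with overlapping groups. Relative to the spike-ins Zfp628 turned to 0.15, and its second probe gave 0.15 with no call. Zfp408 differed by -0.40 ± 0.09 (0.28 relative to the spike-ins). With normexp both lost their calls (-0.19 for Zfp628 and -0.12 for Zfp408). Zfp768 (0.32 ± 0.09) and Zfp771 (0.48 ± 0.07), neighbours on chromosome 7, were higher, as was Zfp622. At the other end, the 5 dimmest members lay just inside the detection requirement: Zfp438, Zfp560, Zfp623 and Zfp384 had differences of 0.29, 0.12, 0.05 and 0.59 with no call, and Zfp759 had -0.56 ± 0.15 (adjusted p = 0.010; 0.12 relative to the spike-ins). With normexp, Zfp384 (-0.16), Zfp438 (-0.26), Zfp560 (-0.35) and Zfp623 (-0.33) turned negative. The 5 genes with the smallest differences (Zfp580, Zfp395, Zfp758, Zfp882 and Zfp945) had standard errors of 0.10 to 0.16, and relative to the spike-ins each of them was positive. Zfp580, whose upstream bases are printed above, had 1.03, 1.02, 1.34 and 1.0 in PCKO mice, against 1.19, 0.99, 1.2 and 1.02 in WT mice.

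Zfp genes that missed the detection requirement were not a mirror image of the members. Of the Zfp genes with a probe, 18 others were above background on 4 to 7 arrays and were tested, and 39 were not tested, 26 of them above background on no array. Of the 18, 15 were above background on more PCKO than WT arrays and 1, Zfp951, on more WT arrays; 13 were higher in PCKO, 5 had no call and none was lower. A gene dim in WT and bright in PCKO could enter the test only through PCKO, so this count is no support for the shift. Just outside the requirement, on 7 arrays, were Zfp444, Zfp60, Zfp667, Zfp709 and Zfp711, with differences of 0.70, 1.30, 0.84, 0.74 and 1.06. Zfp599, Zfp873, Zfp369 and Zfp389 were above background on all 4 PCKO arrays and on no WT array. Their signals were set against the lowest signal well above background on each WT array, or the probe's own where higher. On this bound they were at least 2.61-fold, 2.45-fold, 1.87-fold and 1.33-fold higher in PCKO. These 4 genes entered the test only through PCKO, so their direction is no support for the shift either. The PCKO and WT values of Zfp389 overlapped. Zfp36, which destabilises mRNAs with AU-rich elements, was above background on 5 arrays and had -2.98, -3.54, -2.63 and -3.05 in PCKO mice, against -5.59, -3.41, -5.57 and -3.73 in WT mice. WT mice 1 and 3 were far below the others for Zfp36, and the groups overlapped. Zfp36 was called higher, with a difference of 1.52 (limma adjusted p = 0.026).

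Zfp genes lie in clusters, and 96 of the 273 fell into 12 runs of at least 4 members with no more than 3 protein-coding genes between neighbours in the RefSeq order (GRCm38.p6). In these runs 57.3% were higher in PCKO and 6.25% lower, with a median of 0.40, against 62.1% and 14.7% with a median of 0.47 for the 177 elsewhere. The difference between these shares was not tested. Of all genes tested, 38.3% were higher and 32.7% lower, which is the background for the counts that follow. Chromosome 7 held 66 members (24.2%), of which 46 were higher and 5 lower. A run of 12 there, from Zfp84 to Zfp146, held Zfp30 and Zfp568 and had 9 higher and none lower, with differences of 0.28 to 2.07. A run of 7, from Zfp553 to Zfp689, had all 7 higher, with differences of 0.32 to 1.29. Another run of 5 on that chromosome held Zfp784, at 1.91, next to Zfp580, at -0.00, and a median of -0.00. On chromosome 17 a run of 15 from Zfp677 to Zfp40 had 7 higher and none lower (median 0.25), and one of 6 had 5 higher and none lower (0.51). On chromosome 13 a run of 16 had 9 higher and 3 lower, from Zfp708 at -1.23 to Zfp456 at 1.32. The run of 8 on chromosome 6 spanned the widest range, from Zfp467 at -2.28 to Zfp786 at 1.29. Neighbours therefore covered much of the range seen over the whole list, and how far probes of near-identical neighbours share signal was not tested.

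**Figure D5:**
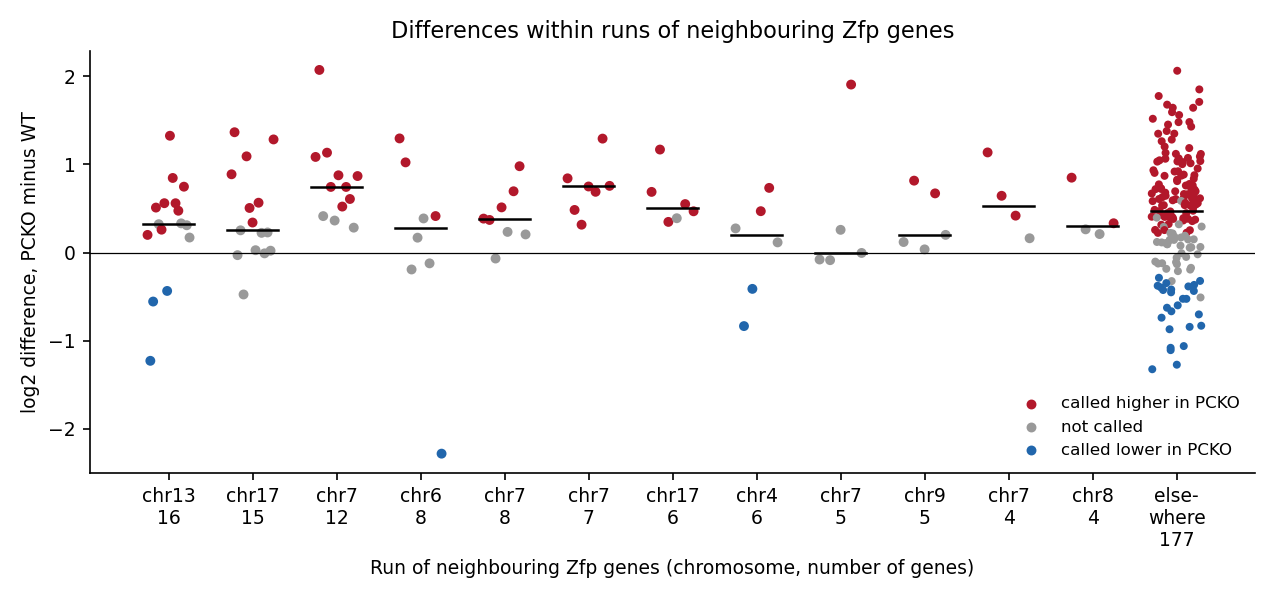
Differences (PCKO minus WT, log2) of the 96 Zfp genes in the 12 runs of neighbours, one column per run labelled with its chromosome and number of genes, coloured by call. The last column holds the 177 Zfp genes elsewhere, and short bars are medians. Each of the 7 genes of one chromosome 7 run was higher in PCKO, while the chromosome 6 run reaches from -2.28 to 1.29.

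For 84 members more than 1 probe was tested, and for 70 of them all probes had the same sign. Probes were called in opposite directions for 3. Zfp142 had -1.11 for the brightest probe and 0.89 for the other. Zfp672 had 1.48 for the brightest and -0.66 for the other, and Zfp457 had 0.26 and -0.81. The direction of these 3 genes depends on the probe and is uncertain. Replicates disagreed most for Zfp661, at 1.5, 0.15, 0.11 and 1.56 in PCKO mice and 2.82, 2.49, 2.22 and 0.88 in WT mice (-1.27 ± 0.50, limma adjusted p = 0.045), and for Zfp605 (standard error 0.51), where PCKO mouse 2 was far below the rest; both were singled out after their values were seen.

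Other families of zinc finger proteins gave differing counts in the same fit, over genes above background on all 8 arrays, of which 39% were higher in PCKO and 32.3% lower. Of 15 Zkscan and Zscan genes, which pair C2H2 fingers with a SCAN domain, 14 were higher in PCKO (93.3%) and none lower, with a median of 0.65. Of 27 Zbtb genes, with a BTB domain, 16 were higher (59.3%) and 5 lower (18.5%; median 0.41). Of 15 Zc3h genes, whose CCCH fingers mostly bind RNA, 10 were higher (66.7%) and none lower (median 0.30). Of 16 Klf and Sp genes, C2H2 factors that bind GC boxes, 3 were higher (18.8%) and 5 lower (31.2%; median -0.21, turned to 0.47 relative to the spike-ins). Whether the families differ from the Zfp genes was not tested.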

How the data were processed

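RNA of EDL muscle from 4 PCKO and 4 WT mice was hybridised to Agilent single-colour arrays (labels' protocols). The authors' deposited scanner files hold each spot's intensity, from which Feature Extraction (version 10.7.3.1 in the header) had subtracted background. The deposited value table of log2 values has an unstated normalization and was an alternative; its columns correlated best with their own arrays (r of at least 0.999, against at most 0.995). Here log2 processed intensity was set relative to the 75th percentile of the non-control probes of the same array, outlier spots were left out and spots of a probe averaged. Accessions were named through RefSeq (GRCm38.p6): 26582 of 55681 probes had 1 symbol, none several and 29099 none. Each gene's brightest probe was kept where well above background on at least 4 arrays. limma 3.58.1 (R 4.3.3) fitted genotype alone over 12739 genes (two-sided, Benjamini-Hochberg, threshold 0.05). On simulated data this fit recovered 37.3%, 79.1% and 95.5% of log2 changes of 0.5, 1 and 2, with 6 false calls among 147. That simulation held 12700 genes, and its calls were far fewer than the 9051 in the data, so its rates of recovery and false calls do not carry over to them. Tables and figures used Python 3.11.15 with pandas 2.3.3, scipy 1.17.1 and matplotlib 3.10.9. The number of arrays limits the precision. Replicates are separate mice, and no 2 arrays held the same values. The members and lists were chosen with earlier results of these data known. Named genes were the 10 largest and 10 smallest differences with calls and non-overlapping groups, the 5 brightest, dimmest and nearest 0, the role lists, runs, genes on 7 arrays and bounds. Same-numbered mice had deviations correlating at 0.057, 0.124, 0.068 and 0.053, below 0.1 for 3 of 4 pairs, so numbers were not taken as pairs. A planned split by KRAB domain and finger number was not analysed here. Of the lists, Zfp36, Zfp516 and Zfp667 were tested without being members, and other listed genes that were not tested are not described.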

Additional observations from a re-analysis of the deposited data

Results flagged for a closer look

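In a group of 4 mice, a value was singled out where its gap to the nearest other value exceeded Dixon's critical share of the group's range. Over the 273 Zfp genes, 26 of 546 groups (4.76%) had such a value, 15 in PCKO and 11 in WT, and chance alone marks about 1 group in 20. Among the genes named above, Zfp536 was at 0.78 in PCKO mouse 2 and at 0.10 to 0.15 in the other PCKO mice, all above the WT mice. Zfp580 was at 1.34 in PCKO mouse 3, against 1.0 to 1.03 in the others, and Zfp438 at -2.64 in that mouse, against -2.91 to -2.89. Zfp592 was at 4.46 in PCKO mouse 1, against 4.19 to 4.23 in the others. In WT mouse 1, Zfp217 was at 2.41, against 2.49 to 2.5, and Zfp598 at -0.34, against -0.11 to -0.08. Zfp759 was at -2.70 in WT mouse 4, against -2.10 to -2.02 in the other WT mice, and this value made its groups overlap.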

How the results depend on the processing

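The counts of Zfp genes higher and lower in PCKO, 165 and 32 here, were 172 and 27 after quantile normalization, 146 and 36 after median centring, 145 and 24 after normexp background correction of the median signal, 150 and 28 with no filter on dim probes, 166 and 33 with the filter at all 8 arrays, 165 and 32 with outlier spots kept and 161 and 30 with the mean of a gene's probes. With the replicate block they were 163 and 31 (median 0.43), and over all genes 4791 and 4169; each PCKO mouse correlated best with the WT mouse of its own number, a hint from the data and not from the design. Within slide rows 1 and 2 the lower counts were 16 and 21, with fewer arrays. The median of 0.43 became 0.35 after median centring and 0.35 after normexp. Spike-in centring gave 220 and 1 with a median of 1.11, and 6814 higher and 1204 lower over all genes; the share of Zfp calls that were higher was 99.5%, against 83.8% here, and over all genes 85.0%, against 53.9%. The median difference of all genes was then 0.73, against 0.06 here. With each gene's own variance, an alternative chosen after seeing the data like the single slide rows and the count over all 291 tested Zfp genes, spike-in centring gave 186 and 1 (all genes 6092 and 967). All 291 tested Zfp genes gave 178 and 32. The authors' deposited table covered 185 members of 8312 genes and gave 110 and 14 (median 0.34), and 3429 and 2388 over all genes, with fewer genes tested. Leaving out 1 mouse at a time gave 150 to 170 higher, 28 to 32 lower and medians of 0.41 to 0.48, and 4589 to 4865 and 3936 to 4058 over all genes. Of these 185, 161 were measured there through the same probe and 24, Zfp217, Zfp423, Zfp467 and Zfp628 among them, through another. Of 63 named genes 47 were called; with normexp 17 of these were over 1.5 times smaller and 6 lost the call (Zfp143, Zfp219, Zfp335, Zfp408, Zfp628 and Zfp697). Signs changed for 6 of the 63 after quantile normalization: Zfp408 (0.058), Zfp628 (0.075), Zfp24 (0.059), Zfp395, Zfp758 and Zfp882. With spike-in centring 11 did: Zfp143 (0.26), Zfp395 (0.67), Zfp408 (0.28), Zfp521 (0.080), Zfp580 (0.67), Zfp628 (0.15), Zfp758 (0.67), Zfp759 (0.12), Zfp24 (0.49), Zfp367 (0.51) and Zfp882 (0.66). With normexp 7 did: Zfp560 (-0.35), Zfp623 (-0.33), Zfp384 (-0.16), Zfp438 (-0.26), Zfp24 (0.099), Zfp367 (0.021) and Zfp580 (0.074). In the deposited values the sign changed for 6: Zfp217 (-0.083), Zfp408 (0.15), Zfp628 (0.18), Zfp24 (0.082), Zfp395 and Zfp758. Median centring turned 3 genes, the mean of probes 2, the single rows 2 and 4, and leaving out 1 mouse 1 to 4, none of them with a call here. Where no cause is stated, the cause was not tested.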
